A study of Mus musculus with 12 samples.

Results

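The epidermal keratins considered were 9 genes, the basal Krt5 and Krt14 and the suprabasal Krt1, Krt2, Krt10, Krt77, Krt78, Krt79 and Krt80, and their members on the array were the spots whose gene name equals a symbol. Of the 9 genes, 8 had a spot of that name, with 11 of the 41174 distinct sequences and among 27373 gene names on the array. Krt77 had no spot of that name and is not analysed here. The DNA microarray samples were whole back skin of male C57BL/6J mice, 8 weeks old when purchased, with the back shaved. The MXD group received 200 µL per day of 3% minoxidil, the positive control for hair growth. The N-CE group received the same volume of 10% Notocactus ottonis cell extract, a cactus extract obtained under vacuum, and the VC group received the vehicle of propylene glycol, ethanol and water alone. Skin was taken at 1W, 2W and 3W (weeks after the start of application), and the RNA of 6 mice went into each pool, which gave 9 pools and no biological replicate. Every treated pool was set against VC of the same week on 2 dual-colour Agilent arrays with exchanged dyes, so that 6 comparisons came from 12 arrays.

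Keratins are the intermediate filament proteins of epithelial cells, and a filament is built from a type I and a type II keratin. Dividing keratinocytes of the basal layer make Krt5 with Krt14. Cells that leave that layer switch to Krt1 with Krt10 in the spinous layer, and add Krt2 higher up, before they form the cornified layer. Krt77 and Krt78 are further suprabasal type II keratins, Krt79 is best known from cells that line the hair canal, and Krt80 is a type II keratin found in many epithelia near desmosomes. The hair shaft and the inner root sheath of the follicle use other keratins. Whole skin holds epidermis, follicles, dermis, fat and muscle together, and in such samples fewer cells of a layer and less RNA per cell cannot be told apart.

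The array sequences of Krt2 and Krt10, the keratins with the lowest mean folds, and of the basal Krt14 are shown because the measurement rests on these 60 bases. On mm9, 8 of the 11 sequences lie on chromosome 15, where the type II genes are, and 2 on chromosome 11 with the type I genes, while the files give no position for the remaining Krt10 sequence. Krt2 was read by A_52_P462608 at chr15:101641879-101641938, on the minus strand. Capitals mark the triplets that start with GG and encode glycine, 11 of the 19 triplets of that frame, in the glycine-rich part typical of suprabasal keratins. The brighter Krt2 sequence, A_51_P343474 at chr15:101641326-101641385, is given by its first 30 bases. Krt10 was read by A_52_P76277 at chr11:99247994-99248053 and Krt14 by A_51_P506417 at chr11:100064683-100065288, both on the minus strand. The 60 bases of the Krt14 sequence span 606 bases of the genome and so cross an intron.
Krt2 A_52_P462608: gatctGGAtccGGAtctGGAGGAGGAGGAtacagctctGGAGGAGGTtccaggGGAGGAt
Krt2 A_51_P343474: cagagatactgtgttctgggaaagaatctg
Krt10 A_52_P76277: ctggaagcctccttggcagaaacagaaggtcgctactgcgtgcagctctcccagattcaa
Krt14 A_51_P506417: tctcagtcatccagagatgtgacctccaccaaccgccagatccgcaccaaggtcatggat

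Krt1 had 2 sequences that did not behave alike, and their first 30 bases are given for that reason. A_51_P416669 lies at chr15:101676107-101676166 on the minus strand and was bright, with raw signals of 9155 to 65079. A_51_P207237 belongs to another transcript of that name, lies at chr15:101678904-101678963 on the plus strand, and was dim, with raw signals of 87.3 to 160.
Krt1 A_51_P416669: agttttcatattagtagcagtctgagtccc
Krt1 A_51_P207237: caggcttgctacctggttctccacaacatg

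The other keratins were read by 1 sequence each, Krt5 at chr15:101537514-101537573, Krt78 at chr15:101776589-101776648, Krt79 at chr15:101760058-101760117 and Krt80 at chr15:101178889-101178948, all on the minus strand. Of the 11 sequences, 10 were well above background in all 24 channels, and the dim Krt2 sequence in 23 of 24. Keratin RNA was therefore measurable in every pool. Over all transcript spots, 57.0% to 65.0% were well above background in Cy3 and 61.3% to 69.6% in Cy5, with 0 saturated spots and 143 to 355 spots per array marked as outliers and left out. The marks fell on Krt5 on 1 array and on the second Krt10 sequence, A_51_P111285, on 5 of 12 arrays.

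Values are given as the log2 of treated over VC on the array with the treated pool in Cy5 and on the array with it in Cy3, and then as their mean ± SD. The SD covers 2 arrays of the same RNA and not the mice. A gene was called up-regulated or down-regulated when each array of the dye swap had a spot P under 0.01, both arrays had the same sign and the mean fold was above 1.5 or below 0.75. No test over mice is possible within a week.

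At 2W of MXD, 4 of 8 keratins were down-regulated and 0 were up-regulated. All 4 were suprabasal (Krt1, Krt10, Krt2 and Krt78), and the basal pair Krt5 and Krt14 lay near 0. This was the comparison in which most genes of the array changed, with 10.0% of 18751 genes called down-regulated and 6.22% called up-regulated. Among the 7717 genes as bright as the dimmest keratin, 17.5% were called in either direction. The median log2 fold of the 8 keratins was -0.71 ± 0.38, against 0.03 over all genes. The 6 suprabasal keratins had a median of -1.28 and a range of -1.93 to 0.19, which takes in the range of the basal pair, -0.05 to 0.09.

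Krt10, the type I partner of Krt1, gave log2 folds of -1.42 and -1.44 on the arrays of MXD at 2W, a mean of -1.43 ± 0.02 or 0.372-fold. Its second sequence gave -1.15 and -1.70, with a mean of -1.43 ± 0.39. The 2 sequences of Krt10 thus gave the same fold. Krt2, the keratin of the upper layers, had the lowest value, with -1.72 and -2.15 and a mean of -1.93 ± 0.30 or 0.262-fold. Its glycine-rich sequence gave -1.93 and -2.39, where the MXD pool was well above background on 1 of 2 arrays, and its mean of -2.16 ± 0.33 became -0.74 after normexp background correction and loess. Direction was shared by both Krt2 sequences, while the size for the dim sequence depended on the background correction.

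Krt78 gave -0.97 and -1.57 at 2W of MXD, with a mean of -1.27 ± 0.43 or 0.416-fold. Krt1, the type II partner of Krt10, gave -0.64 and -1.95 on its bright sequence, with a mean of -1.30 ± 0.93. Both arrays were below 0 for Krt1, but they differed from each other more than those of any other keratin here. The dim Krt1 sequence on the opposite strand gave 0.34 and -0.41, with a mean of -0.04 ± 0.53, and it was called in 0 of the 6 comparisons. The mean over both Krt1 sequences was -0.67 and was not called.

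The remaining keratins at 2W of MXD differed from VC by less than the spread of their arrays or by about that much, and none was called. Krt5 gave 0.42 and -0.24 (mean 0.09 ± 0.47), and Krt14 gave 0.22 and -0.33 (mean -0.05 ± 0.39). Krt80 gave 0.59 and -0.21, with a mean of 0.19 ± 0.57. These genes were above 0 with the treated pool in Cy5 and below 0 with it in Cy3. Krt79 gave -0.04 and -0.27, with a mean of -0.16 ± 0.16.

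**Figure D1:**
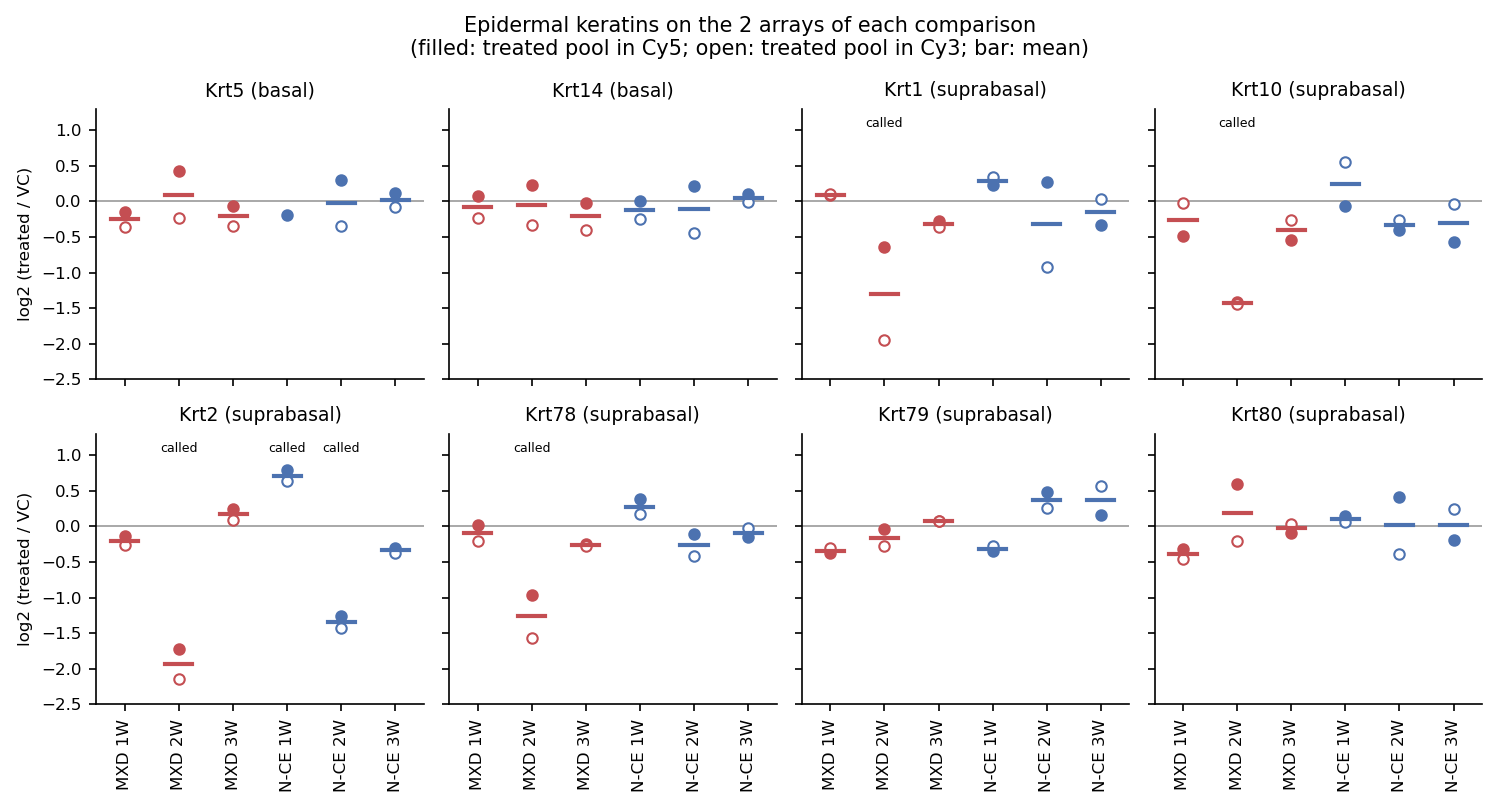
Log2 of treated over VC (vertical axis) of the 8 measured keratins in the 6 comparisons (horizontal axis, MXD in red and N-CE in blue). Filled points are the array with the treated pool in Cy5, open points the array with it in Cy3 and bars their mean, and "called" marks the comparisons that met the P and fold criteria. The means of Krt1, Krt10, Krt2 and Krt78 lie at -1.27 or lower at 2W of MXD, whereas the means of Krt5 and Krt14 stay between -0.25 and 0.09.

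The plot of log2 folds by array shows that this fall was not present in the other weeks of MXD at the size needed for a call. At 1W, 0 of 8 keratins were called (1.27% of all genes were called down-regulated and 1.26% up-regulated), with a median of -0.23 ± 0.08. The lowest was Krt80 with -0.31 and -0.45, a mean of -0.38 ± 0.10 or 0.767-fold. Krt79 followed with a mean of -0.34 ± 0.06 and Krt10 with -0.26 ± 0.33. At 1W Krt1 lay at 0.10 ± 0.00 and Krt2 at -0.20 ± 0.09.

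At 3W of MXD, 0 of 8 were called, where the shares over all genes were 0.287% down-regulated and 0.293% up-regulated. The median was -0.21 ± 0.14. Krt10 had -0.54 and -0.26, with a mean of -0.40 ± 0.20 or 0.757-fold, just short of the fold limit. Krt1 had a mean of -0.32 ± 0.05 and Krt78 of -0.26 ± 0.02, while Krt2 was at 0.17 ± 0.11. The basal keratins were at -0.21 ± 0.20 for Krt5 and -0.21 ± 0.26 for Krt14.

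In N-CE, Krt2 was the only measured keratin called in any week, and its direction turned. At 1W Krt2 gave 0.79 and 0.63, with a mean of 0.71 ± 0.12 or 1.64-fold, and was up-regulated. Its glycine-rich sequence gave 0.85 and 0.90. At 2W Krt2 gave -1.26 and -1.42, with a mean of -1.34 ± 0.12 or 0.395-fold, and was down-regulated, with -1.43 and -1.03 on the glycine-rich sequence. At 3W it gave -0.31 and -0.37, with a mean of -0.34 ± 0.04, and was not called. Both sequences were thus above VC at 1W and below it at 2W on each array, and after normexp and loess the means of the glycine-rich sequence were 0.41 and -0.66.

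The count at 1W of N-CE was 1 of the 7 keratins with a value on both arrays, where 0.543% of all genes were up-regulated and 2.78% down-regulated. The median of the 7 was 0.25 ± 0.02, but the medians of the arrays were 0.14 and 0.17, since the median of mean folds can lie outside both. With all spots of an array taken, Krt5 included where it had a value, the single-array medians were 0.071 and 0.17. Krt1 (0.28 ± 0.07), Krt78 (0.28 ± 0.14) and Krt10 (0.25 ± 0.44) lay above 0, Krt79 at -0.31 ± 0.05, and none of these 4 was called. Krt5 had a value of -0.19 on 1 array, its other spot being marked as an outlier.

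At 2W of N-CE the count was 1 of 8, where 0.0751% of all genes were down-regulated and 0.118% up-regulated. Among genes as bright as the dimmest keratin, 0.143% were called. The median was -0.19 ± 0.46, and the median of the array with the treated pool in Cy5 was above 0, at 0.25. Krt10 lay at -0.33 ± 0.10 and Krt78 at -0.26 ± 0.21. Krt1 had 0.28 and -0.93, and the arrays disagreed in sign. Krt79 was at 0.37 ± 0.15, or 1.29-fold.

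At 3W of N-CE 0 of 8 were called, beside 0.214% down-regulated and 0.208% up-regulated genes, with a median of -0.03 ± 0.11. Krt79 was again highest, with 0.16 and 0.57 and a mean of 0.36 ± 0.29. Krt10 was at -0.31 ± 0.37, and Krt5 and Krt14 were at 0.02 ± 0.13 and 0.05 ± 0.08.

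MXD and N-CE were also compared with each other within a dye orientation, since both used the VC pool of the week and the arrays of 1 orientation carried the same dye for it. This mattered at 2W. The folds of Krt1, Krt5, Krt14 and Krt80 differed between orientations by similar amounts in both treatments. For Krt1, departures of each array from the mean were 0.66 in MXD and 0.60 in N-CE, and for Krt80 they were 0.40 and 0.40. Within an orientation, MXD minus N-CE for Krt1 at 2W was -0.92 and -1.03, a mean of -0.97 ± 0.08. The orientations were thus close to each other in this difference, although they were far apart in the folds themselves.

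The other down-regulated keratins of MXD were likewise lower in MXD than in N-CE at 2W. The difference was -1.10 ± 0.12 for Krt10, -1.01 ± 0.21 for Krt78 and -0.59 ± 0.18 for Krt2. Krt79, which was called in neither treatment, differed by -0.52 ± 0.01. Krt5, Krt14 and Krt80 differed by 0.12 ± 0.00, 0.06 ± 0.08 and 0.18 ± 0.00. Of the 6 suprabasal keratins, Krt1, Krt10, Krt2, Krt78 and Krt79 were therefore lower in MXD on both orientations, while Krt80 and the basal pair were not.

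At 1W the largest difference was that of Krt2, -0.91 ± 0.02, followed by Krt10 with -0.51 ± 0.11, Krt80 with -0.49 ± 0.05 and Krt78 with -0.38 ± 0.01. At 3W Krt2 stood the other way, at 0.51 ± 0.07, and Krt1, Krt10 and Krt80 had orientations of opposite sign. These differences were between 1 pool and 1 pool and have no test over mice.

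**Figure D2:**
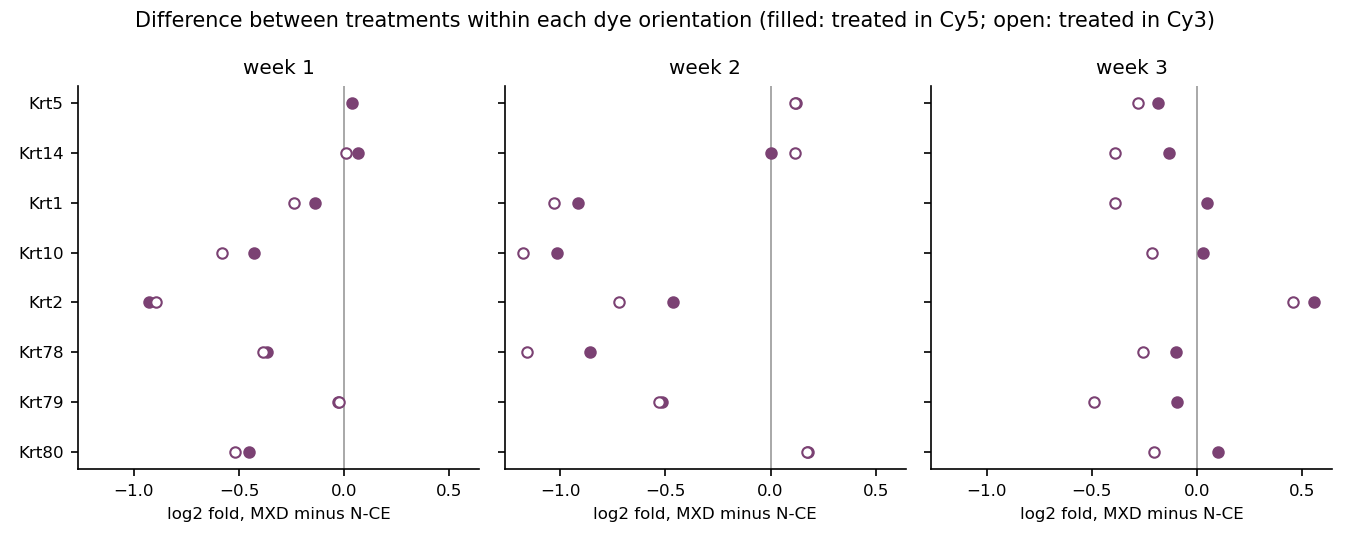
Log2 fold in MXD minus that in N-CE (horizontal axis) for each keratin, by week, with filled points for arrays with the treated pool in Cy5 and open points for Cy3. At week 2 Krt1, Krt10 and Krt78 lie near -1 on both orientations, and Krt2 moves from -0.91 at week 1 to 0.51 at week 3.

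Weeks were also taken in place of replicates, to ask whether a shift was shared by all 3 weeks. With limma and Benjamini-Hochberg adjustment over 40820 probes, 0 of the 9 keratin sequences that could be tested were called for MXD, for N-CE or for their difference. Over all probes 0 were called as well (0.00% in each of the 3 contrasts), with 4220, 1013 and 1379 probes at an unadjusted p under 0.05. For MXD the lowest adjusted p of a keratin was 0.48 by limma, for Krt10. Its mean log2 fold was -0.70 ± 0.27, with all 3 weeks below 0. The ± here is the SE from limma, which pools the spread over weeks of both treatments. Krt78 had -0.54 ± 0.25 with all 3 weeks below 0, and Krt2 had -0.66 ± 0.56 with 2 of 3 weeks below 0. With any of the 3 weeks left out, 0 keratin sequences reached an unadjusted p under 0.05 in the MXD contrast, against 1 with all weeks.

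The levels within each pool are given beside the ratios. They are log2 intensities after normalization between arrays, each compared only with other levels of the same sequence. The array headers give the 4 arrays of each week 1 scan date of their own, taken here as 1 slide. Week and scan date therefore cannot be told apart. The VC pool was measured on the arrays of both treatments, and its mean level differed between them by 0.00 to 0.59, with a median of 0.16.

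Krt2 in the VC pools was at 9.46 ± 0.16 at 1W, 9.95 ± 0.29 at 2W and 9.04 ± 0.20 at 3W (SD over 4 channels). In MXD it was at 9.16 ± 0.02, 8.34 ± 0.07 and 9.33 ± 0.08, and in N-CE at 10.19 ± 0.04, 8.56 ± 0.00 and 8.62 ± 0.31 (SD over 2 channels). At 2W the lowest VC channel, 9.68, was above every treated channel. From 1W to 2W the level in N-CE fell by 1.63 and that in MXD fell by 0.82, while that in VC was higher by 0.49. All of these are also differences between scan dates.

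Krt10 was nearly level in VC, at 14.44 ± 0.13, 14.28 ± 0.18 and 14.48 ± 0.27. In MXD it was at 14.18 ± 0.02, 12.97 ± 0.11 and 14.09 ± 0.10, and the low value at 2W stood below all channels of the other pools. N-CE was at 14.74 ± 0.21, 13.82 ± 0.13 and 14.13 ± 0.15. Krt78 in MXD went from 11.61 ± 0.01 to 10.80 ± 0.23 and 11.10 ± 0.11, and in VC from 11.79 ± 0.14 to 12.14 ± 0.30 and 11.49 ± 0.18. Krt1 was lower at 2W and 3W than at 1W in all groups, by 0.37 and 0.53 in VC, by 1.56 and 0.85 in MXD and by 1.22 and 1.11 in N-CE.

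Krt79 had a different course from the called keratins. In VC its level fell by 0.95 from 1W to 2W and was lower by 0.91 at 3W than at 1W, and in MXD these differences were -0.88 and -0.65. In N-CE they were -0.18 and -0.09, with 14.00 ± 0.07, 13.82 ± 0.19 and 13.91 ± 0.25 in the 3 weeks. With the processed signals scaled to the 75th percentile the differences in N-CE were -0.37 and -0.49, and those in VC were -1.03 and -1.17, so the size of the course in N-CE depended on the scaling. The lowest N-CE channel at 2W (13.69) and at 3W (13.73) lay above the highest VC channel of that week (13.48 and 13.58). Krt80 was highest at 2W in all groups, with 11.75 ± 0.39 in VC, 11.62 ± 0.22 in MXD and 12.05 ± 0.57 in N-CE. Krt5 and Krt14 stayed between 15.68 and 16.13 and between 14.83 and 15.32 as means over the 9 pools.

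**Figure D3:**
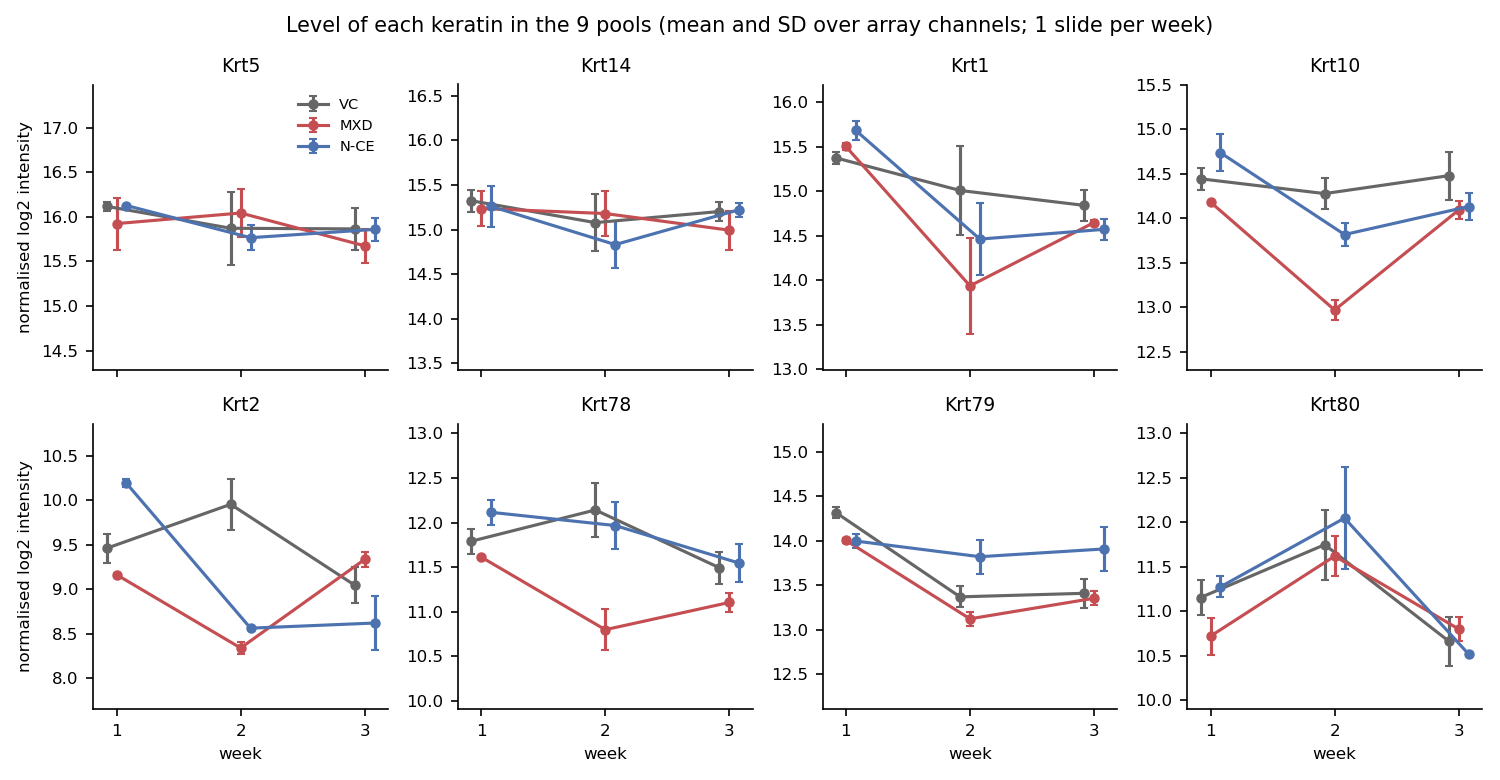
Normalised log2 intensity (vertical axis, each panel spanning the same range) of each keratin by week in the VC, MXD and N-CE pools. Points are means and bars SDs over the array channels of a pool (4 for VC and 2 for each treatment), with no bar where 1 channel remained. MXD at week 2 is lowest for Krt10 at 12.97 and for Krt78 at 10.80, and at week 2 the Krt79 level of N-CE is 13.82 and that of VC 13.37.

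Companion gene groups of the epidermis were examined beside the keratins. In the cornified envelope group, which seals the dead cells of the surface, 17 of 34 genes were down-regulated and 5 up-regulated at 2W of MXD. Over all genes 10.0% were down-regulated and 6.22% up-regulated in that comparison. The group had a median log2 fold of -0.45 and ranged from -1.56 to 1.22. Krtdap, a protein secreted by differentiating keratinocytes, had -1.56 ± 0.59, and Flg2, a filaggrin-like protein of the cornified layer, had -1.55 ± 0.25. In the lipid barrier group 4 of 12 were down-regulated and 0 up-regulated, among them Aloxe3, a lipoxygenase of barrier formation, with -1.07 ± 0.53 and Elovl4, a fatty acid elongase, with -0.70 ± 0.13.

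Counts in the other epidermal groups at 2W of MXD are to be read against the 6.22% of all genes called up-regulated and the 10.0% called down-regulated. Among regulators of differentiation 5 of 19 were up-regulated and 0 down-regulated, with Notch1, a receptor that acts in the suprabasal switch, at 1.33 ± 0.30 and the transcription factor Tfap2a at 0.97 ± 0.25. Among desmosome genes 2 of 14 were up-regulated and 0 down-regulated, with a median of 0.25, the cadherins Dsc2 at 1.22 ± 0.16 and Dsg3 at 0.74 ± 0.10. In the group of basal layer and hemidesmosome genes 1 of 14 was up-regulated and 2 were down-regulated, shares near those of all genes, with a median of -0.26. There Cdh3 (P-cadherin) was at 0.94 ± 0.18 and Col17a1 (a hemidesmosome collagen) at -0.91 ± 0.22. Of the keratins of wounded and hyperproliferative epidermis 3 of 4 were up-regulated, with Krt6b at 1.15 ± 0.04 and Krt17 at 0.94 ± 0.46.

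Markers of follicles and of other tissues in whole skin moved in the same comparison, and their part in the keratin values was not tested. At 2W of MXD, 12 of 12 hair shaft keratins were up-regulated, with a median of 1.34 and Krt82 and Krt33b at 1.48 ± 0.65 and 1.46 ± 0.12, as were 4 of 4 inner root sheath keratins and 6 of 6 melanocyte genes. Down-regulated were 14 of 14 fast skeletal muscle genes (median -1.46), 5 of 8 adipocyte genes, 4 of 8 dermal fibroblast genes, 3 of 8 leukocyte genes and 3 of 7 sebaceous gland genes, with 0 up-regulated in these groups. The muscle genes Ttn and Eno3 were at -1.80 ± 0.51 and -1.62 ± 0.41, the adipocyte genes Plin1 and Car3 at -1.08 ± 0.23 and -1.02 ± 0.26, and the fibroblast genes Lum and Dpt at -1.13 ± 0.12 and -0.92 ± 0.10. The leukocyte genes Ptprc and Cd52 were at -1.05 ± 0.18 and -0.93 ± 0.02, the sebaceous genes Awat2 and Scd1 at -1.12 ± 0.41 (-0.44 after normexp and loess) and -0.92 ± 0.18, and the melanocyte genes Oca2 and Tyrp1 at 1.40 ± 0.13 and 1.38 ± 0.11. Krt1, Krt10, Krt2 and Krt78 were thus lower in a comparison in which hair keratins were higher and the markers of several deeper tissues were lower, while the suprabasal Krt79 and Krt80 were not called. At 1W of MXD, where 0 of 8 keratins were called, 1.26% of all genes were up-regulated and 1.27% down-regulated. Up-regulated there were 4 of 12 hair shaft, 4 of 5 melanocyte, 2 of 4 wound keratin and 5 of 34 cornified envelope genes. Down-regulated were 8 of 13 muscle genes, with 1 up-regulated, and 2 of 7 sebaceous gland genes. No adipocyte, dermal fibroblast, leukocyte or inner root sheath gene was called.

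At 1W of N-CE, where Krt2 was up-regulated, the follicle groups went the other way. Of the hair shaft keratins 11 of 12 were down-regulated, with a median of -2.30, and 5 of 5 inner root sheath keratins, with Krt26 at -2.86 ± 0.07 and Krt71 at -2.82 ± 0.05, as were 5 of 5 melanocyte genes. Shares over all genes in this comparison were 2.78% down-regulated and 0.543% up-regulated. In the cornified envelope group 1 of 34 was down-regulated, near the share of all genes, with a median of 0.14. In the lipid barrier group 0 of 12 were called, with a median of 0.26. At 2W of N-CE, where Krt2 was down-regulated, 0.0751% of all genes were down-regulated and 0.118% up-regulated. There 0 of 12 hair shaft and 0 of 33 cornified envelope genes were called, with medians of 0.33 and -0.08. Down-regulated were 1 of 14 fast skeletal muscle genes (median -0.44) and 1 of 8 adipocyte genes (median -0.38). Of the melanocyte genes 1 of 6 was up-regulated (median 0.54), and the remaining companion groups had no called gene.

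**Figure D4:**
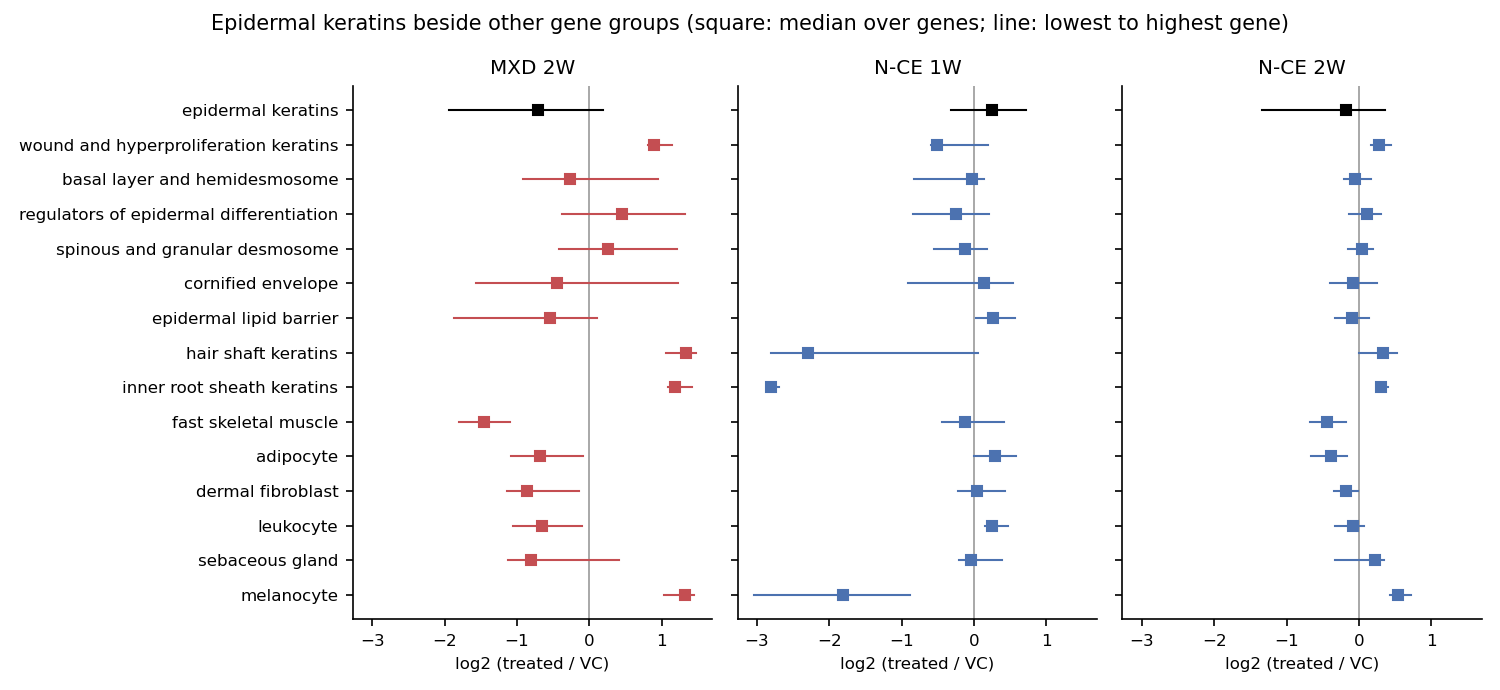
Log2 of treated over VC (horizontal axis) for the epidermal keratins (black) and 14 companion gene groups at 2W of MXD, 1W of N-CE and 2W of N-CE. Squares are medians over the measured genes of a group and lines run from the lowest to the highest gene. At 2W of MXD the keratin median of -0.71 lies on the side of the cornified envelope, lipid barrier and muscle groups and opposite to the hair shaft keratins at 1.34.

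Likeness between keratins over the 12 arrays was described by Pearson's r of their log2 folds. No p is given because arrays of a week share the VC pool and a scan date. Krt78 had r of 0.91 with Krt1, 0.85 with Krt10 and 0.84 with Krt2, and Krt1 had 0.74 with Krt10 and 0.73 with Krt2. Krt14 had 0.58 with Krt80, 0.41 with Krt1, 0.20 with Krt78, 0.19 with Krt79, -0.01 with Krt2 and -0.25 with Krt10. At 2W of both treatments, Krt14 and Krt80 were each higher with the treated pool in Cy5 than in Cy3. Krt79 had between -0.26 and 0.36 with every other keratin compared. The arrays of MXD at 2W, on which Krt1, Krt10, Krt2 and Krt78 were called, are among the 12, so the values among these 4 genes restate that shared fall in part. Krt5 lacked a value on 1 array and was left out.

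Among 14708 genes above background on every array, the genes with the pattern most like Krt78 were Hal (r = 0.99), an enzyme that breaks down histidine in the outer epidermis, Napb (0.99) and Lce1b (0.98), a late cornified envelope protein. Those most like Krt10 were Ebf2 and Arsi with 0.99 and 0.98 and a transcript without a symbol. For Krt1 they were Mmp23, Fcer1g and Islr with 0.97, 0.96 and 0.95, and for Krt2 Ccl24, Apoc4 and Slc1a5 with 0.96, 0.96 and 0.95. For Krt14 they were Cpa4, Zdhhc1 and Sap25, each at 0.95. For Krt79 Trp73, Fmod and Fxyd3 had 0.94, 0.93 and 0.90, and for Krt80 Wbp2, Amotl1 and Ssh1 had 0.98, 0.98 and 0.97. The weekly shifts common to many genes enter all of these values. Differences between dye orientations enter them too, since single arrays were used. Krt14 was higher with the treated pool in Cy5 than in Cy3 in every comparison, while its means lay between -0.21 and 0.05.

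The bases just before the start of transcription are printed for 3 suprabasal keratins that fell together at 2W of MXD and for the basal Krt5, so that they can be read side by side. RefSeq promoters of GRCm38.p6 were at hand for 7 of the 9 genes, all except Krt1 and Krt80. The 60 bases before the start lie on the minus strand at chr11:99389365-99389424 for Krt10, chr15:101818170-101818229 for Krt2, chr15:101954288-101954347 for Krt78 and chr15:101712906-101712965 for Krt5. Capitals mark TATAA or ATAAAAG, motifs chosen after the sequences were seen.
Krt10: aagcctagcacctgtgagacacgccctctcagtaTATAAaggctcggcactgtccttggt
Krt2: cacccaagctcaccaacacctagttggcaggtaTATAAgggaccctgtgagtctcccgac
Krt78: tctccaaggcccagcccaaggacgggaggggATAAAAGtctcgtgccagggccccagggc
Krt5: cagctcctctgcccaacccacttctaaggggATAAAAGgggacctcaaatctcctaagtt

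TATAA on the coding strand within the last 50 bases was found in Krt10 and Krt2 and in 4.93% of all 32851 promoters, and ATAAAAG in Krt78 and Krt5 and in 1.13%. The motif began 26 to 29 bases before the start in these 4 genes. Krt78 and Krt5 held the same letters at 29 bases. Krt78 was down-regulated at 2W of MXD and Krt5 was not called, and a part of the motif in these values was not tested. The promoters of Krt14, Krt77 and Krt79 held neither motif there. Further motifs were searched on both strands over 250 bases before the start. TATAAA was in 1 of the 7 keratin promoters, that of Krt10, and in 12.4% of all promoters. TGANTCA was in 0 of 7 and 6.75%, and CCCGCCC in 0 of 7 and 23.4%.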

How the data were processed

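RNA of whole back skin was hybridized to Agilent mouse arrays, 2 arrays with exchanged dyes per comparison. The authors scanned the arrays and ran Agilent Feature Extraction, version 12.0.3.1 per the file headers and 11.0.1.1 per the labels. The deposited log10 ratio of each spot is Cy5 over Cy3 after background subtraction and dye normalization by the authors. The deposited p-value describes a spot and was computed by the authors' scanning software. The deposited intensity of each channel is given raw and processed. The series table of log10 ratios by the authors was recovered from the processed intensities to within 1e-05 at each of 43379 spots for transcripts, and 0 of its columns were left unused. Positions are on mm9.

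Control and outlier spots were left out, ratios were turned to log2 of treated over VC, and spots of a sequence were averaged. A gene was represented by its brightest sequence among those unmarked on all 12 arrays where it had one, and entered a comparison if well above background in a channel. Fold and SD are over the dye swap. Levels used normexp with an offset of 50, loess and Aquantile. The weekly folds were tested with limma 3.58.1 in R 4.3.3 at an adjusted p under 0.05, and other steps used Python 3.11.15 with numpy 2.4.6, pandas 2.3.3 and matplotlib 3.10.9. The calls and the limma fit were tested on simulated data. The number of arrays limits the precision.

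The keratins and companion lists were chosen with earlier results of these data known. Named were all keratins, the 2 called genes of each list with the largest fold, above background in both groups, in the comparison with most calls, and the 3 genes most correlated with each keratin. Alternatives were normexp with loess, the series table, outlier spots kept, the mean over sequences, each array alone, a filter on dim spots, no P, symmetric folds, each week left out and the week as a random block.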

Additional observations from a re-analysis of the deposited data

Results flagged for a closer look

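Krt2 in N-CE was up-regulated at 1W and down-regulated at 2W, and all arrays of each week had the same direction. The log2 fold went from 0.71 ± 0.12 to -1.34 ± 0.12, a difference of -2.05. The difference between the weeks was not tested, as each week is 1 treated pool and 1 VC pool with a scan date of its own. The other Krt2 sequence went from 0.87 ± 0.04 to -1.23 ± 0.28.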

How the results depend on the processing

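The count of 4 called keratins at 2W of MXD was 3 to 4 under 7 alternatives and 4 to 5 on single arrays, and Krt2 at 1W and 2W of N-CE was called under every alternative run for it. Krt1 at 2W of MXD was not called with the mean over its sequences (-0.67). On single arrays the counts ranged from 0 to 1 at 3W of MXD, from 1 to 2 at 2W of N-CE and from 0 to 1 at 3W of N-CE, where Krt10 was called at -0.54 in MXD and -0.57 in N-CE at 3W and Krt1 at -0.93 in N-CE at 2W. Krt80 was called at 0.59 on 1 array at 2W of MXD. The median at 2W of MXD was -0.34 and -0.88 on single arrays and -0.41 with the mean over sequences, and at 3W of MXD it was -0.080 and -0.27 on single arrays. The single-array medians ranged from -0.25 to -0.14 at 1W of MXD, from 0.071 to 0.17 at 1W of N-CE and from -0.17 to -0.020 at 3W of N-CE. At 2W of N-CE the median was 0.25 on 1 array and -0.40 on the other. With outlier spots kept, which brings in Krt5, the median at 1W of N-CE was 0.17, and with the mean over sequences it was 0.22. The limma contrasts called 0 keratins with each week left out, the week as a random block, normexp with loess or, chosen after seeing the data, without probes of equal fold in all weeks. Of 48 differences of levels between weeks, 14 moved by more than the SD with the 75th percentile scaling. That of Krt10 in VC at 3W changed sign, from 0.04 to -0.13, but moved by less than the SD of 0.27. Samples could not be paired by replicate number, because the labels give every sample replicate number 1. The week as a random block and the differences within a dye orientation were used instead. With 1 pool per group, differences between mice are not measured.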
